A study of Mus musculus with 3 samples.

Results

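Microglia-like cells were compared with oligodendrocyte-like cells sorted from the subventricular zone of the same mice, plate by plate, over all genes. The microglia-like side holds the 36 cells of the authors' cluster 1, and the oligodendrocyte-like side the 77 cells of their clusters 0 and 2, together 113 of the 149 cells in the deposited filtered table. On plates 1, 2 and 3 there were 9, 18 and 9 microglia-like cells and 4, 25 and 48 oligodendrocyte-like cells. The subventricular zone lines the lateral ventricles and is a stem cell niche of the adult brain. All cells came from male C57BL/6J mice with no treatment or altered gene named in the labels, 8 mice per experiment, and the labels tie no cell to a single mouse. Trypsin freed the cells, and magnetic beads selected those with GLAST, the product of Slc1a3 that takes up glutamate, on their surface. Polyadenylated RNA was measured by SORT-seq, which puts single cells in the wells of a plate and adds to every transcript a barcode for its well and a molecular identifier. Beads had removed myelin in 2 of the 3 experiments, and the labels do not say which plates these are, so its removal cannot be told apart from plate. The sources used here give no age for the mice.

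Microglia are the resident macrophages of the brain. They depend on the receptor Csf1r, sense purines through P2ry12 and clear cells and debris through complement, Fc receptors and a large lysosomal system. Oligodendrocytes wrap axons in myelin, a stack of membrane rich in cholesterol and galactolipids whose compact layers are held together by proteins such as Mbp, and their identity genes are switched on by Sox10, Olig2 and Myrf. The labels name neural stem cells as the cell type of all samples, and the cells compared here carried the markers of these other classes instead.

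Promoters of marker genes are shown because the transcription factors that define each side were themselves among the genes that differed. PU.1, encoded by Spi1, is the ETS factor of macrophages and binds cores such as AGGAAGT. SOX factors such as Sox10 bind cores such as ACAAAG. Both words were searched on both strands of the window from 250 bases before to 50 bases after each RefSeq start site in build GRCm38.p6, and they share no overlap with each other. Of 14 marker genes looked up, 11 had a promoter in the RefSeq table. The 4 printed were chosen because they hold the word searched for their side, while the promoter of Siglech held no AGGAAGT. The capitals mark AGGAAGT or its reverse complement in the first pair and ACAAAG or its reverse complement in the second pair.
P2ry12 promoter, chr3:59262936-59263235, minus strand: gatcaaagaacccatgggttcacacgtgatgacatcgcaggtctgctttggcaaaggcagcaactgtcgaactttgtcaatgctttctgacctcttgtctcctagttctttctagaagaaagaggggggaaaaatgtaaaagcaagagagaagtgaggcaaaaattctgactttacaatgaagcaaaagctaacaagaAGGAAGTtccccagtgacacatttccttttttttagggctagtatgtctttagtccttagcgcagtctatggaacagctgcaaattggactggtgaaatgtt
C1qb promoter, chr4:136886151-136886450, minus strand: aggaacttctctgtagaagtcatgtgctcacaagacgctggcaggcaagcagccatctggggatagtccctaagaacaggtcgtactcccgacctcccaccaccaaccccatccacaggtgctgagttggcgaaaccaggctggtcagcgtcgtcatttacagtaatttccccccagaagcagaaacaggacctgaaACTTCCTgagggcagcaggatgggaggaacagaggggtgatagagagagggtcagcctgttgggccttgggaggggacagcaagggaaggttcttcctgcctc
Cnp promoter, chr11:100574689-100574988, plus strand: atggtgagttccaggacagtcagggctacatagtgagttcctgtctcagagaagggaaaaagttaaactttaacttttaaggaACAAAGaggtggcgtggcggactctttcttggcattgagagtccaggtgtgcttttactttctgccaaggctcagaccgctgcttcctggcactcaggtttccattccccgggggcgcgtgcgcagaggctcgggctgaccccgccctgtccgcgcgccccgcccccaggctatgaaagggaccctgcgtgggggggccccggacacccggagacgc
Mobp promoter, chr9:120149492-120149791, plus strand: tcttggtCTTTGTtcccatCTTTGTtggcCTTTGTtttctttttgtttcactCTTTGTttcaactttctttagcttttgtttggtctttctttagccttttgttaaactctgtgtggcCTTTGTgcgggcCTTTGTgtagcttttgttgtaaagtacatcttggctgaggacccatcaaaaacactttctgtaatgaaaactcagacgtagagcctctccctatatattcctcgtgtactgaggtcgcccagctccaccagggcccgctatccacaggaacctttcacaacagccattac
In the same build P2ry12 spans chr3:59216271-59262985, C1qb chr4:136880126-136886200, Cnp chr11:100574909-100591875 and Mobp chr9:120149742-120181488. The promoter of Mobp, which encodes a small protein of compact myelin, held ACAAAG 6 times, all on the reverse strand, and that of Cnp, a myelin enzyme of the cytoplasmic channels, held it 1 time. ACAAAG also stands in the P2ry12 promoter, where it is left in lower case. AGGAAGT stood in 15.1% of 372 promoters of genes higher in microglia-like cells, 7.25% of 414 promoters of genes higher in oligodendrocyte-like cells, 7.91% of 354 promoters of tested genes that did not pass, and 9.35% of all 32851 promoters. ACAAAG stood in 14.0%, 18.6%, 13.6% and 18.7% of the same 4 sets. With 1 promoter per gene these shares were 15.2%, 7.22%, 7.43% and 9.57% for AGGAAGT and 13.4%, 14.1%, 12.6% and 18.7% for ACAAAG. These are counts of letters with no test. They say nothing of binding.

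Levels are given in CPM, a gene's transcripts in every 1000000 transcripts of the 1070 tested genes that the cells of a side held on a plate, after edgeR's TMM scaling. Each transcript is counted once through its identifier, so a level does not grow with gene length. The 6 sums held 29692, 73662 and 23847 transcripts on the microglia-like side and 45014, 327275 and 432351 on the oligodendrocyte-like side, of which 17250, 44086 and 13806 and 29787, 214462 and 280644 were from tested genes. No doublet caller was run. Across the plates, 29 of the 80 well positions used by both sides held a cell on more than 1 plate, as a fixed set of well barcodes allows.

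2 cells of plate 1 went against their side. The first, labelled microglia-like, held 0.248% of its transcripts in the list of microglia identity genes and 3.78% in the list of endothelial and mural genes, with 22.1 transcripts of Itm2a, 12.02 of the endothelial claudin Cldn5 and none of Csf1r. The second, labelled oligodendrocyte-like, was 1 of the 4 on its plate and held 0.251% in compact myelin genes and 1.41% in astrocyte or stem cell genes. Among the other cells the lists took 2.12% to 6.84% of a microglia-like cell and 4.35% to 15.7% of an oligodendrocyte-like cell. No cell of either side held more of the other side's list than of its own, and the highest share of the other list was 2.69% myelin in a microglia-like cell and 0.987% microglia identity in an oligodendrocyte-like cell. Without the 2 cells 719 genes passed where 716 had passed, and 702 of these were the same.

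**Figure D1:**
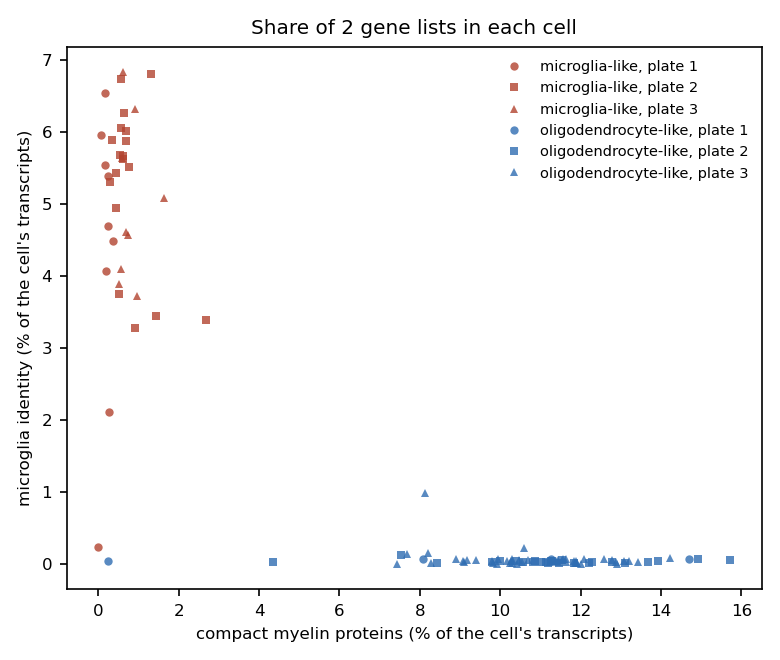
Share of each cell's transcripts in the compact myelin list (horizontal axis, percent) and in the microglia identity list (vertical axis, percent), 1 point per cell, colour by side and shape by plate. The 36 microglia-like and 77 oligodendrocyte-like cells lie along separate axes, with the 2 plate 1 cells of 0.248% and 0.251% near the origin.

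The microglia markers fixed for the check were far more abundant on the microglia-like side on every plate. Csf1r, the receptor for the growth factors CSF1 and IL-34, stood at 9433, 10603 and 7803 CPM in microglia-like cells and at 57.7, 64.5 and 60.8 CPM in oligodendrocyte-like cells on plates 1, 2 and 3. C1qb, a subunit of the C1q complex that starts the classical complement pathway, stood at 11923, 10395 and 10124 CPM against 375, 113 and 73.0 CPM. P2ry12, the purine receptor that guides microglial processes, stood at 5812, 7330 and 5691 CPM against 0, 37.6 and 12.2 CPM. The groups did not overlap for any of these, which also holds for 73.0% of all genes tested. Siglech, a sialic acid binding lectin, stood at 2986, 4720 and 2972 CPM against 0, 5.37 and 12.2 CPM, a log2 difference of 8.55 ± 0.63 (SE, 3 plates, edgeR adjusted p = 6.07e-38). Csf1r, C1qb and P2ry12 differed by 7.17 ± 0.51, 6.26 ± 0.47 and 8.19 ± 0.57 on the same scale. With so few transcripts on the other side, Siglech and P2ry12 could pass the filter on low counts only through microglia-like cells. Their direction was thereby fixed in advance. The clusters are also taken to come from these same values, so the p-value is not independent support. The other microglia markers, Cx3cr1, Tmem119 and Fcrls, differed by 6.93 to 7.95 on the log2 scale. P2ry12 was found in 35 of 36 microglia-like cells, 7 of 77 oligodendrocyte-like cells and 6 of the 30 cells of cluster 3, with median depths of 3455, 9012 and 4192 transcripts per cell.

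The oligodendrocyte side carried the mature myelin set. Cldn11, the claudin that forms the tight junctions of central myelin, stood at 15108, 20201 and 16960 CPM in oligodendrocyte-like cells and at 338, 1070 and 858 CPM in microglia-like cells. Mbp, which binds the cytoplasmic faces of the membrane together, stood at 8879, 13596 and 13800 CPM against 56.3, 865 and 858 CPM. Opalin, a sialylated membrane protein of mature oligodendrocytes, stood at 1997, 2050 and 2543 CPM against 56.3, 159 and 132 CPM. The log2 difference, microglia-like minus oligodendrocyte-like, ran from −3.37 ± 0.48 for Mobp to −4.57 ± 0.43 for Cldn11 over the 7 oligodendrocyte markers plotted, and each was lower in microglia-like cells on every plate. Pdgfra, the receptor that marks oligodendrocyte precursors, had no transcript on either side.

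**Figure D2:**
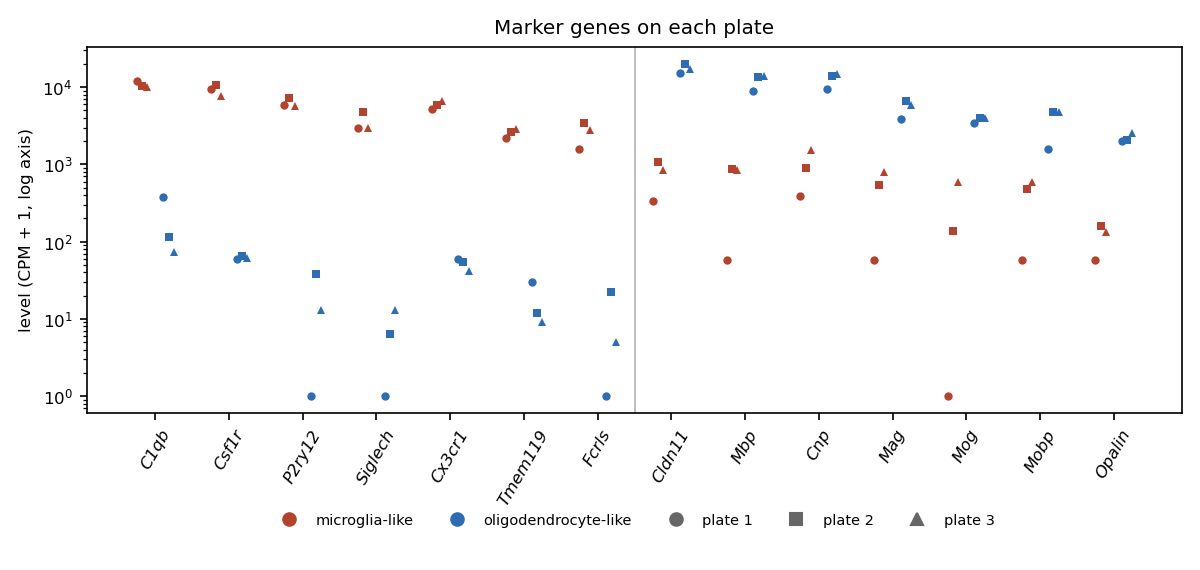
Level (CPM + 1, log axis) of 7 microglia markers (left) and 7 oligodendrocyte markers (right) on each of 3 plates, coloured by side. Every microglia marker plotted lies higher in microglia-like cells and every oligodendrocyte marker lower, and Mbp in microglia-like cells stands at 56.3 CPM on plate 1 and at 865 and 858 CPM on plates 2 and 3.

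Myelin transcripts took a smaller median share of microglia-like cells on plate 1 than on plates 2 and 3. Cldn11 was present in 26 of 36 microglia-like cells and in 7 of the 30 cells of cluster 3. The cells of cluster 3 held a median of 3.998% of their transcripts in astrocyte or stem cell genes. The median myelin share of a microglia-like cell was 0.200%, 0.614% and 0.698% on plates 1, 2 and 3, where oligodendrocyte-like cells were 4 of 43, 25 of 45 and 48 of 61 cells. In cluster 3 that share was 0.271% in 25 cells, 0.542% in 1 cell and 0.613% in 4 cells on the same plates. The part of RNA carried between wells in these levels was not tested, and the removal of myelin cannot be told apart from plate.

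Over the 1070 genes with enough transcripts to be tested, 716 (66.9%) passed an adjusted p of 0.05. Of these, 357 (33.4% of those tested) were higher in microglia-like cells and 359 (33.6%) higher in oligodendrocyte-like cells. For 781 genes (73.0%) the 3 plates of one side did not overlap the 3 of the other. The authors' clusters are taken to come from these same expression values, so the calls describe how far the sides lie apart and are not independent findings. More than 8-fold differences numbered 207 and 196 among the called genes, and more than 32-fold differences 147 on the microglia-like and 48 on the oligodendrocyte-like side. These counts cannot be compared directly, because 3 transcripts were worth 39.0 CPM in the microglia-like and 6.42 CPM in the oligodendrocyte-like sums. Among genes tested, 12 had no transcript in microglia-like cells and 24 had none in oligodendrocyte-like cells, and the size of their fitted folds is uncertain. The median log2 difference was 3.82 among genes called higher and −3.19 among those called lower, against −0.07 over all genes tested. RLE scaling in place of TMM moved that median of all genes by −0.12. Of the 354 genes that did not pass, 22 had a 95% interval within 1 log2 unit of no difference, so for the rest equality is not shown.

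**Figure D3:**
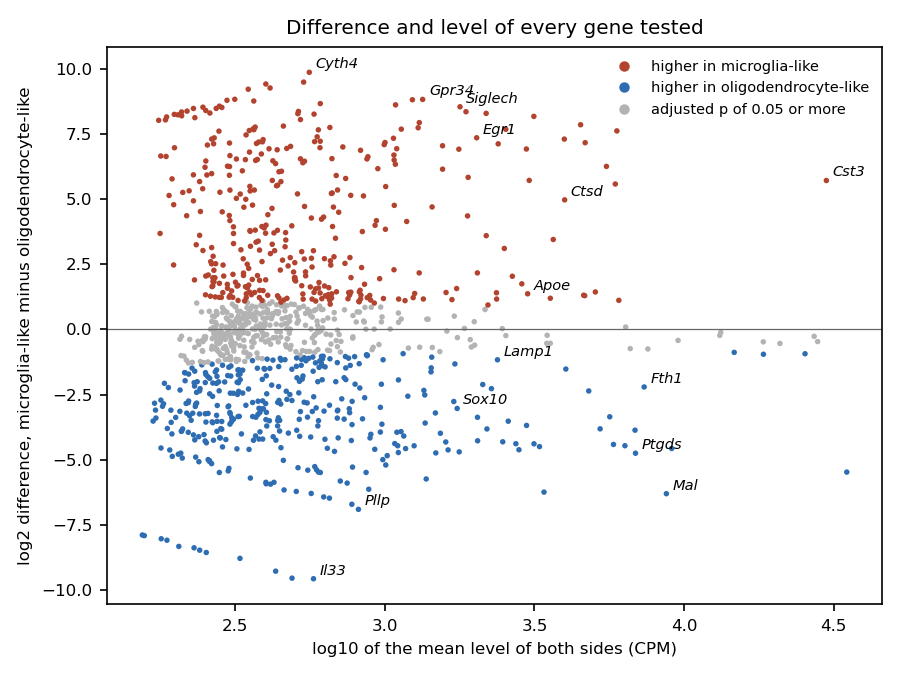
Log2 difference (vertical axis) against the log10 of the mean CPM of both sides (horizontal axis) for the 1070 genes tested. The 357 genes higher in microglia-like cells lie above 0, the 359 higher in oligodendrocyte-like cells below it, and the 12 lowest points are genes with no transcript in microglia-like cells.

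Genes absent or nearly absent from the oligodendrocyte-like sums stood among the 15 largest differences toward microglia. Cyth4, an exchange factor for ARF GTPases of blood cells, stood at 619, 1480 and 1254 CPM and was absent from the oligodendrocyte-like sums, at least 193-fold higher against a floor of 3 transcripts over the 3 plates. Fcgr1, the high-affinity receptor for IgG, stood at 450.4, 524 and 1122 CPM and was at least 97.4-fold higher by the same bound. Ptpn6, the phosphatase SHP-1 that reads inhibitory receptors, was at least 103-fold higher, Dusp6, which switches off ERK, at least 136-fold and the transcription factor Pou2f2 at least 95.3-fold. A prostaglandin pair stood among the 15. Ptgs1, the cyclooxygenase COX-1, had 92.0 transcripts against 1, a ratio of 559.9 (95% counting interval 98.0 to 22343), and Hpgd, which inactivates prostaglandins, was at least 112-fold higher. In oligodendrocyte-like cells Ptgds, which makes prostaglandin D2, stood at 19682, 9086 and 11199 CPM against 56.3, 728 and 528 CPM (log2 difference −4.75 ± 0.46, edgeR adjusted p = 1.99e-23).

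By fitted log2 difference, the 15 largest toward oligodendrocytes included 12 genes with no transcript in any microglia-like cell. The fitted value of such a gene depends on how the model treats a count of 0, so their rank is uncertain. By edgeR, S1pr5 of these 12 differed by −8.04 and Pllp, which had transcripts on both sides, by −6.91. By DESeq2 the values were −5.63 and −6.89. Il33, a nuclear cytokine that acts as an alarm signal, stood at 1680, 834 and 949.7 CPM, at least 24.5-fold above the floor, in 55 of 77 cells. Lpar1, a receptor for lysophosphatidic acid, stood at 896, 1135 and 905 CPM, at least 25.5-fold above it. S1pr5, the sphingosine-1-phosphate receptor of mature oligodendrocytes, stood at 375, 365 and 333 CPM and was at least 8.94-fold higher. Tyro3, the TAM receptor of oligodendrocytes, was at least 13.7-fold higher in oligodendrocyte-like cells, and its relative Mertk at least 60.8-fold higher in microglia-like cells, with 338, 387 and 462 CPM there. Bounds are lower on this side because the microglia-like sums are shallower, so a floor of 3 transcripts is worth 39.0 CPM there and 6.42 CPM in the oligodendrocyte-like sums. Enpp2, the enzyme that makes the ligand of Lpar1, stood at 4257, 6511 and 7123 CPM in oligodendrocyte-like cells and at 56.3, 228 and 726 CPM in microglia-like cells (log2 difference −4.39 ± 0.49), so the receptor and this enzyme were higher on the same side.

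The immune lists were higher as a whole among the members tested. All 17 tested members of microglia identity (of 20), 14 of leukocyte adhesion and lineage (of 16), 7 of complement and coagulation (of 14), 6 of Fc and pattern recognition receptors (of 20) and 8 of phagocytosis and NADPH oxidase (of 19) were higher in microglia-like cells. Their median log2 differences were 7.17, 7.15, 6.94, 6.78 and 6.997, and 7.01, 7.02, 6.94, 6.56 and 6.37 with genes absent from one side set at their bound. Without plate 2, 5 phagocytosis genes could be tested and all were higher. Members that were not tested were too sparse, so these counts say nothing of them. A gene near 0 on one side could pass the filter on low counts only through the other side. For such genes, here, in the paragraphs above and in the lists below, the direction was thereby fixed in advance. C1qa and C1qc, the other chains of C1q, stood at 3269, 4011 and 3897 CPM and at 7788, 7327 and 8599 CPM in microglia-like cells, against at most 12.2 CPM and 59.1 CPM on any plate of the other side. C3, their downstream partner, had no transcript in microglia-like cells, while its fragment's receptor C3ar1 had 53.0 transcripts against 2 (ratio 161, counting interval 42.5 to 1366). All 3 tested genes of antigen presentation (of 14) were higher as well, B2m at 7118, 5843 and 4956 CPM against 57.7, 80.6 and 162 CPM, while the class II genes H2-Aa and H2-Ab1 had no transcript on either side. Among complement genes Clu, an extracellular chaperone, differed least, at 732, 387 and 462 CPM against 144, 188 and 235 CPM (log2 difference 1.34 ± 0.51, edgeR adjusted p = 0.0151). Clu did not pass with any 1 plate left out, by DESeq2, without a filter, against either oligodendrocyte cluster alone or with equal cell numbers.

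Receptor transcripts were divided between the sides. Of 14 receptors tested in the list of cytokine and growth factor receptors, 11 were higher in microglia-like cells and 3 in oligodendrocyte-like cells. Tgfbr1, a TGF-beta receptor needed for microglial maturation, stood at 2988, 3692 and 2576 CPM against 0, 48.4 and 48.6 CPM. Cx3cr1, the fractalkine receptor, stood at 5244, 5820 and 6611 CPM against 57.7, 53.7 and 40.5 CPM. The 3 higher on the other side were Lpar1, Fgfr2 at 693, 1076 and 1018 CPM against 56.3, 91.0 and 198 CPM, and Gpr37, an orphan receptor of myelinating cells, at 1186, 1766 and 2067 CPM against 0, 68.3 and 264 CPM. Of the ligands of Csf1r, Csf1 had a mean of 18.8 CPM in microglia-like and 99.6 CPM in oligodendrocyte-like cells, and Il34 had none. Sirpa, the inhibitory receptor for CD47, stood at 1915, 2095 and 2377 CPM against 0, 16.1 and 28.4 CPM, while its ligand Cd47 did not pass, at 507, 250.4 and 198 CPM against 202, 484 and 300.1 CPM. Entpd1, which degrades the extracellular ADP that P2ry12 detects, was higher on the same side as that receptor (1239, 751 and 1122 CPM against 0, 0 and 20.3 CPM).

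The transcription factors divided along the same line. All 7 tested microglial factors of 17 were higher in microglia-like cells, with a median log2 difference of 6.46, and without plate 1, 11 of 12 tested. Irf8, which macrophages need to develop, stood at 1183, 706 and 1321 CPM against 0, 10.7 and 12.2 CPM. Sall1, a factor that holds microglia in their resident state, stood at 676, 979 and 594 CPM against 0, 64.5 and 56.8 CPM (log2 difference 3.90 ± 0.57), the smallest gap of the 7. Sfpi1, the older symbol of Spi1 and so PU.1, had 46.0 transcripts against 1 (ratio 279.9, counting interval 47.8 to 11290). Of 8 tested oligodendrocyte factors of 20, 6 were lower in microglia-like cells and 2 did not pass under TMM, and all 8 passed as lower under RLE scaling. Sox10 stood at 2905, 3144 and 3232 CPM in oligodendrocyte-like cells against 113, 409.7 and 660.1 CPM, and Olig1 at 2173, 2535 and 2515 CPM against 0, 159 and 132 CPM. Myrf, which drives the late myelin genes, had 564 transcripts against 2 (ratio 46.3, counting interval 12.8 to 383.7). The 2 that did not pass under TMM were Zeb2 (log2 difference −0.84 ± 0.48) and Nfia (−1.09 ± 0.57).

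The lysosomal list was led by microglia-like cells, with exceptions in its membrane and pump genes. Of 30 tested genes of 47 in the table, 20 were higher, 2 lower and 8 did not pass, with a median log2 difference of 1.84, and the list summed to 123160, 141532 and 108626 CPM against 14804, 15226 and 14640 CPM. Cst3, the secreted cathepsin inhibitor cystatin C, was the most abundant member at 57733, 68320 and 49741 CPM against 1706, 844 and 953 CPM (log2 difference 5.72 ± 0.40). This gene thus made up a large part of the list's sum in microglia-like cells. All 30 cells of cluster 3 held it too, at 40040 CPM without TMM scaling. Ctss, a microglial cathepsin, stood at 9551, 9689 and 7668 CPM against 86.6, 16.1 and 40.5 CPM, and Ctsd, the aspartic cathepsin mutated in a neuronal ceroid lipofuscinosis, at 7902, 9139 and 6148 CPM against 289, 215 and 235 CPM. The 2 exceptions were Lamp1, a structural glycoprotein of the lysosomal membrane, at 901, 1662 and 1915 CPM against 2959, 3498 and 3334 CPM (log2 difference −1.17 ± 0.40, edgeR adjusted p = 0.00594), and Atp6v0d1, a subunit of the proton pump, at 56.3, 114 and 198 CPM against 289, 355 and 349 CPM (−1.48 ± 0.64, adjusted p = 0.0319), which did not pass without plate 1 or by DESeq2. Lamp1 did not pass without plate 2 (−1.47) or in thinned sums (−0.76), and without plate 2 the list had 13 of 26 tested genes higher and none lower. Npc1, which exports cholesterol from lysosomes, did not pass, with an interval from −1.09 to 0.70. Of 9 tested genes of the disease-associated microglia list, 5 were higher, 1 lower and 3 did not pass. The 5 were B2m, Apoe and the cathepsins Ctsb, Ctsz and Ctsl, and the 1 was Fth1. Without plate 2, 3 of 8 tested were higher and 1 lower, and Apoe and Ctsb did not pass. The defining genes Cst7 and Itgax stood at means of 18.8 and 60.3 CPM and Gpnmb at 0. The shares to set beside the counts of the lysosomal and disease-associated lists are those of all genes tested, 33.4% higher and 33.6% lower.

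Myelin genes were lower in microglia-like cells almost without exception. Of 24 tested members of the compact myelin list (of 26), 23 were lower and 1 did not pass, with a median log2 difference of −4.54. The 1 was Cd9, a tetraspanin that both cell types carry, at 732, 1344 and 660.0 CPM in microglia-like against 1041, 829 and 921 CPM in oligodendrocyte-like cells (0.01 ± 0.42, interval −0.81 to 0.83). Mal, a raft protein that sorts myelin cargo, stood at 16468, 17656 and 17547 CPM against 56.3, 228 and 396 CPM in microglia-like cells, and Tspan2 at 7054, 6835 and 6280 CPM against 0, 114 and 132 CPM. The maturation list, ordered from precursor to mature cell, had all 11 tested of 27 lower, among them Car2, Apod and Anln, while precursor genes such as Bmp4, Neu4 and Sox6 were too scarce to test. Of 12 tested genes of axon contact and paranodes, 10 were lower and 2 higher. Cntn2, an adhesion molecule beside the node, stood at 809, 1162 and 1258 CPM against 0, 22.8 and 330.0 CPM, and Nfasc, which anchors the paranode, at 318, 1147 and 941 CPM against 0, 68.3 and 66.0 CPM. The 2 higher were Sirpa and the protease Adam10 (394, 569 and 528 CPM against 86.6, 193 and 166 CPM). Without plate 2, 1 of 8 tested was higher and 7 were lower, without plate 3 1 of 12 and 10, where Adam10 did not pass, and without the 2 cells that went against their side 1 of 11 was higher.

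Genes of lipid synthesis were higher on the oligodendrocyte-like side, and those of lipid uptake were divided. Of 8 tested genes of fatty acid and sphingolipid synthesis, 7 were lower in microglia-like cells and Elovl1 did not pass, and without plate 1, 12 of 25 were lower and 1 higher. Scd2, a desaturase, stood at 9380, 11621 and 12240 CPM in oligodendrocyte-like against 169, 706 and 726 CPM in microglia-like cells, and Ugt8a, which makes galactosylceramide, at 1970, 3954 and 3391 CPM against 0, 114 and 330.1 CPM. Degs1, the ceramide desaturase, had 508 transcripts against 1 (ratio 83.5, counting interval 14.9 to 3305). Of the cholesterol pathway 1 gene of 23 could be tested and was lower, Sc4mol, the older symbol of Msmo1, at 404, 538 and 519 CPM against 56.3, 68.3 and 66.0 CPM, and 20 of 23 mean levels were lower in microglia-like cells. Without plate 1, 12 genes of that pathway could be tested, of which 7 were lower and none higher. Among 9 tested genes of lipid uptake, binding and efflux, 4 were higher and 3 lower, and without plate 2, 2 and 1 of 5. Over all genes tested 33.4% were higher and 33.6% lower, so this division was near that of all genes. Apoe, the lipid carrier, stood at 5021, 2165 and 5827 CPM against 2409, 930.2 and 1648 CPM, so the sides overlapped across plates while each plate had more in microglia-like cells (log2 difference 1.37 ± 0.38). Apoe did not pass without plate 2 or without plate 3. Abca1, which loads lipid onto Apoe, stood at 1295, 1413 and 330.0 CPM against 0, 177 and 195 CPM, and Lrp1, an Apoe receptor, at 563, 1184 and 858 CPM against 28.9, 5.37 and 16.2 CPM. The 3 lower were Apod, Fabp5 and Abhd5, the last a lipase activator with 170 transcripts against 1.

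The 2 ferritin chains parted. Fth1, the heavy chain with ferroxidase activity, stood at 8606, 12891 and 14761 CPM in oligodendrocyte-like cells and at 3497, 2187 and 2180 CPM in microglia-like cells (log2 difference −2.21 ± 0.38, edgeR adjusted p = 3.54e-08). Ftl1, the light chain that helps lay down the iron core, went the other way, at 983, 1055 and 1079 CPM against 2422, 2598 and 1915 CPM in microglia-like cells (1.15 ± 0.39, adjusted p = 0.00619). The sides did not overlap for either chain, which also holds for 73.0% of all genes tested. Ftl1 did not pass without plate 2 (0.83) or without a filter (0.56). Ferritin genes have many processed copies in the genome, and reads shared with these make both levels uncertain. Trf, transferrin, stood at 6633, 8460 and 8983 CPM in oligodendrocyte-like cells against 1352, 1457 and 1915 CPM. Slc11a1, the NRAMP1 metal exporter of phagosomes, had 59.0 transcripts against 3 in oligodendrocyte-like cells (ratio 119.7, counting interval 39.0 to 597). The antioxidant list was divided as well, with 2 of 7 tested genes higher and 3 lower, beside 33.4% and 33.6% of all genes tested. Sepp1, the older symbol of selenoprotein P (4848, 3237 and 1981 CPM against 144, 1078 and 938 CPM), and Gpx1 (338, 546 and 792 CPM against 86.6, 48.3 and 60.8 CPM) were higher in microglia-like cells. Gpx4, the peroxidase that repairs membrane lipids, stood at 169, 91.0 and 132 CPM against 693, 683 and 649 CPM and was lower, as were Prdx1 and Gstp1. Without plate 2, 3 genes of the list could be tested, of which 1 was higher and 2 lower.

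Actin genes were divided, and most tubulin genes tested were lower in microglia-like cells. Of 22 tested actin genes, 11 were higher in microglia-like cells, 5 lower and 6 did not pass, with a median log2 difference of 0.90. Among all genes tested, 33.4% were higher and 33.6% lower. Without plate 2, 3 of 16 tested were higher and 2 lower, and in thinned sums 3 of 11 and 2, with a median of 0.05. Tmsb4x, which buffers actin monomers, stood at 9715, 6708 and 5882 CPM against 2551, 2678 and 2775 CPM but did not pass without plate 2. Coro1a, a leukocyte coronin, stood at 676, 319 and 396 CPM against none (at least 64.9-fold). The 5 lower were Gsn, Arpc1a, Dock10, Pfn2 and Cfl2, of which Dock10 did not pass without plate 2. Paralogue pairs split here. Arpc1b, the Arp2/3 subunit common in leukocytes, stood at 788, 660.2 and 396 CPM against 57.7, 215 and 170.3 CPM, whereas its paralogue Arpc1a stood at 56.3, 182 and 132 CPM against 607, 1065 and 893 CPM. Of 16 tested tubulin and microtubule genes, 12 were lower, 3 did not pass and Tubb5 was higher, with a median of −3.52. Tubb5 did not pass without plate 1, without plate 3, by DESeq2, without a filter or against either oligodendrocyte cluster alone, and it could not be tested without plate 2. Tubb4a, the tubulin of myelinating cells, stood at 9128, 8951 and 11071 CPM in oligodendrocyte-like against 56.3, 911 and 1320 CPM in microglia-like cells, and Stmn1, which frees tubulin dimers, at 2142, 3106 and 3296 CPM against 113, 91.0 and 132 CPM. Mapt, the axonal protein tau, was also higher in oligodendrocyte-like cells, at 1737, 2132 and 2250 CPM against 113, 45.5 and 198 CPM. Tubulin and actin isoforms are near-identical in sequence, so levels of single members are uncertain.

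Channels and energy genes showed smaller or mixed differences. Of 15 tested channels, pumps and transporters, 5 were higher in microglia-like and 8 in oligodendrocyte-like cells, and without plate 2, 2 and 8 of 14. The shares over all genes tested were 33.4% and 33.6%. Kcnk6, a two-pore potassium channel, was at least 66.9-fold higher in microglia-like cells, at 394, 387 and 594 CPM, while Kcnj10, the glial channel Kir4.1, stood at 491, 930.4 and 884 CPM in oligodendrocyte-like against 56.3, 137 and 132 CPM. Slc2a5, a fructose transporter that marks microglia, stood at 676, 706 and 330.0 CPM and was at least 97.4-fold higher. Of 7 tested genes of glycolysis, Slc2a5 and Ldhb (1014, 1093 and 660.1 CPM against 231, 139.7 and 89.2 CPM) were higher and 5 did not pass, among them Gapdh at 0.02 ± 0.45, and without plate 2, 1 of 6 was higher. Of 14 tested respiratory chain genes, 12 did not pass and Atp5b and Cox6a1 were lower, by −1.43 ± 0.53 and −1.50 ± 0.55. RLE scaling called 5 of these 14 lower. Without plate 1, 8 of 62 tested were lower, without plate 2, 1 of 5, and without plate 3, 1 of 17.

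**Figure D4:**
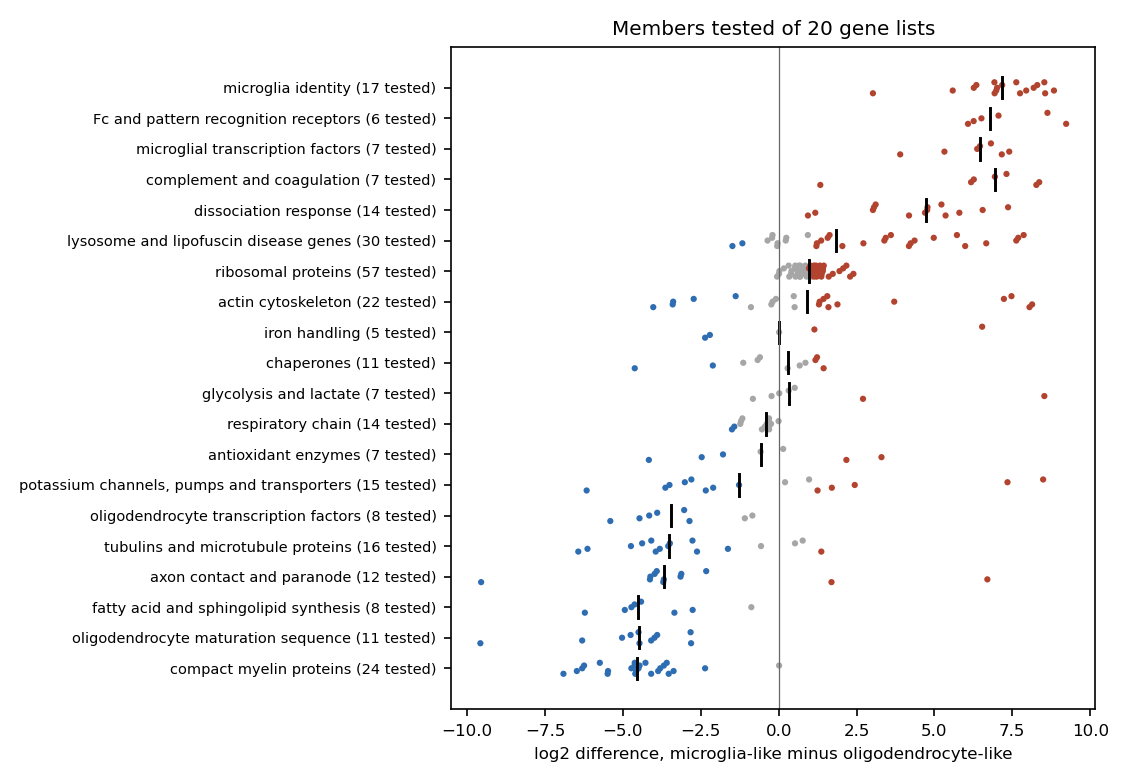
Log2 difference of every tested member of 20 gene lists, 1 point per gene, red where higher in microglia-like cells, blue where higher in oligodendrocyte-like cells and grey where the adjusted p was 0.05 or more, with a black bar at each list's median. The medians run from 7.17 for microglia identity to −4.54 for compact myelin proteins, beside −0.07 for all 1070 genes tested.

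Early response genes stood far higher in microglia-like cells. All 14 tested members of the dissociation response list (of 29) were higher, with a median log2 difference of 4.73. Egr1, an immediate early transcription factor, stood at 3382, 4424 and 4299 CPM against 0, 26.9 and 28.4 CPM, and was found in 28 of 36 microglia-like and 8 of 77 oligodendrocyte-like cells. Fos stood at 1183, 1504 and 1386 CPM against 28.9, 26.9 and 40.5 CPM, and Jun at 3890, 4242 and 5291 CPM against 722, 451 and 446 CPM. The list took a median of 1.54% of a microglia-like cell's transcripts, from 0.0931% to 3.98%, and 0.190% of an oligodendrocyte-like cell's, from 0.0275% to 0.685%. The smallest gap was that of Rhob (log2 difference 0.94 ± 0.39, edgeR adjusted p = 0.0253), which did not pass with any 1 plate left out or by DESeq2. The part of the trypsin step in these levels was not tested, since all cells went through it. Chemokines and cytokines of the list fixed for them, such as Ccl3, Ccl4 and Tnf, were too sparse to test, as were interferon response genes. Of 11 tested chaperones, Hspa5, Calr and Pdia6 of the endoplasmic reticulum were higher, Cryab and Hsp90aa1 were lower and 6 did not pass. Over all genes tested 33.4% were higher and 33.6% lower, so the chaperones did not exceed either share. No chaperone was higher without plate 1 (4 of 24 lower) or without plate 2 (2 of 8 lower), and DESeq2 called 1 higher.

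Ribosomal protein genes took a larger share of the microglia-like sums. They summed to 70457, 62345 and 38814 CPM in microglia-like cells and to 22638, 28398 and 31560 CPM in oligodendrocyte-like cells, so the gap was narrow on plate 3. Of 57 tested, 28 were higher, 29 did not pass and none was lower, with a median log2 difference of 0.97. Among all genes tested, 33.4% were higher in microglia-like cells and 33.6% lower. Rpl12 stood at 845, 1184 and 858 CPM against 144, 220.3 and 174 CPM, while Rpl19 stood at 338, 979 and 396 CPM against 635, 554 and 669 CPM and did not pass. The number called higher was 14 by DESeq2, 9 without plate 1, 3 without plate 2 and 28 without plate 3, and no alternative called one lower. Ribosomal genes have many processed copies, and their levels are uncertain for that reason.

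Markers of other cell types were low on both sides. The 9 genes of the perivascular macrophage list that the table holds, Mrc1, Cd163, Lyve1 and Pf4 among them, had no transcript in microglia-like cells, and neither had the 7 ependymal genes it holds. None of the genes of the blood leukocyte, neuron or endothelial lists was abundant enough to be tested. Of 19 genes of dividing cells 1 was tested, Pcna, and it did not pass. Slc1a3, the gene of the surface protein used to select the cells, stood at 563, 455 and 594 CPM in microglia-like and 144, 129 and 219 CPM in oligodendrocyte-like cells (log2 difference 1.71 ± 0.51, edgeR adjusted p = 0.00177). It was found in 22 of 36 and 47 of 77 cells and in all 30 cells of cluster 3. Slc1a2, the other astrocytic glutamate transporter, and Clu were also higher in microglia-like cells, and the astrocyte and stem cell list summed to 2871, 2436 and 4555 CPM against 1732, 1005 and 1524 CPM. Endothelial and mural genes summed to 3608, 364 and 1320 CPM against 86.6, 107 and 413 CPM, with the plate 1 value holding the cell that went against its side. Of 4 tested genes of the astrocyte and stem cell list, 3 were higher in microglia-like cells. None of that list was higher without plate 2 or without a filter, 1 of 3 was without plate 3, and 1 of 4 by DESeq2. The part of astrocytic RNA from other cells in the levels of Slc1a3, Slc1a2 and Clu was not tested.

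Microglia-like cells were brighter and held fewer transcripts. Autofluorescence, an intensity in arbitrary units recorded for each cell, is not an expression value, and the clusters are taken to come from expression. Its medians on plates 1, 2 and 3 were 4929, 5397 and 3950 in microglia-like cells and 1076, 1577 and 1035 in oligodendrocyte-like cells, and the ratios of the medians of log10 values were 4.60, 3.42 and 3.81. The mean log10 difference was 0.593 ± 0.0649 (SD, n = 3 plates), a 3.91-fold gap seen on 3 of 3 plates, and an exact permutation test that flips the sign of each plate's difference gave a two-sided p of 0.25, which is as low as 3 plates can go. Within a plate, a microglia-like cell was the brighter in 83.3%, 90.4% and 97.9% of pairs. On the 3 plates 6 of 9, 15 of 18 and 8 of 9 microglia-like cells outshone the brightest oligodendrocyte-like cell, and no oligodendrocyte-like cell exceeded the microglia-like median. The dimmest microglia-like cell, at 218, was the plate 1 cell rich in endothelial transcripts, and without the 2 cells that went against their side the gap was 3.86-fold. Cells of cluster 3 had medians of 1839, 2900 and 1776, with 25, 1 and 4 cells. Among genes tied to sources of autofluorescence, 20 of 30 tested lysosomal genes were higher in microglia-like cells, and of the flavin and redox enzymes 1 of 27 could be tested, Sdha, which did not pass. Whether any of these contributes to the brightness was not tested.

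**Figure D5:**
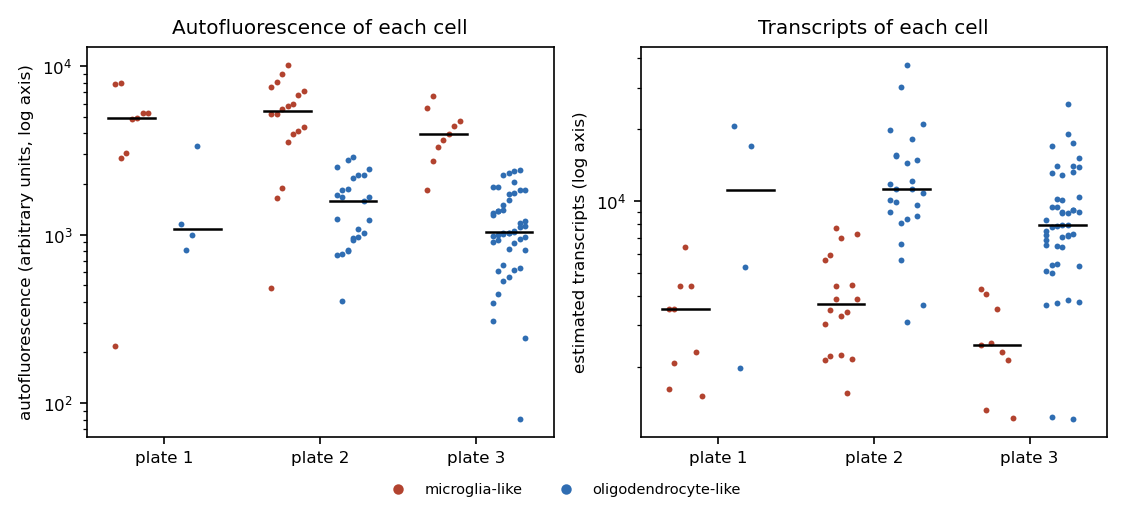
Autofluorescence (left, arbitrary units, log axis) and estimated transcripts (right, log axis) of each cell by plate and side, with black bars at the medians. Microglia-like medians of 4929, 5397 and 3950 lie above oligodendrocyte-like medians of 1076, 1577 and 1035, and transcripts per cell lie in the opposite order on each plate.

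Transcripts per cell ran the other way. The medians on plates 1, 2 and 3 were 3497, 3673 and 2469 in microglia-like cells and 11174, 11185 and 7925 in oligodendrocyte-like cells. The ratios of medians of log10 values were 0.368, 0.328 and 0.312, and that of plate 1 differs from the ratio of the medians above because its 4 oligodendrocyte-like cells have 2 middle values. The mean log10 difference was −0.475 ± 0.0372 (SD, n = 3 plates), a 0.335-fold level, lower on 3 of 3 plates (p = 0.25 by the same exact permutation test). Genes detected per cell were 0.536-fold as many, with medians of 1538 and 2724 over all plates. CPM are scaled to unequal totals, so equal CPM on both sides does not mean equal molecules per cell. Without the 2 cells that went against their side the ratio of transcripts was 0.276-fold.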

How the data were processed

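Cells were sorted into plates and sequenced by SORT-seq, 1 plate on each of 3 days. The values deposited by the authors are estimated counts of transcripts per gene and cell, per the file headers and their values, and inverting the correction for 4096 identifiers gave whole identifier numbers for 100% of 349688 values above 0 (within 1e-06). Autofluorescence is an intensity in arbitrary units in the table deposited by the authors, which also holds their cluster of each cell. The sources used here do not say how the clusters were drawn, and they are taken to come from the expression values. Tools in the submitters' processing notes are Seurat 4.1.1, R 4.2.0 and BWA 0.7.15, beside the builds mm10 and hg19, without roles. The final digit of the library name gave each cell's plate.

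Estimated counts were summed over the cells of a side on each plate and rounded, giving 6 sums of 23847 to 432351 transcripts. edgeR 4.0.16 (R 4.3.3) fitted its quasi-likelihood model with TMM scaling, filterByExpr and the plate as a block, because both sides of a plate share mice and day, and Benjamini-Hochberg values under 0.05 over the 1070 genes tested were called. CPM are transcripts over the tested genes' total times its TMM factor. Nothing in the labels ties cells to single mice, so the plates are the replicates. With the plate as a block, p-values measure how the difference between the sides varies over 3 plates, with variances moderated across genes. An SE is the absolute log2 difference over the square root of the F statistic, and the 95% intervals of log2 differences were built from it. On simulated data with 877 genes tested, 36 of 38 genes at a log2 difference of −2 and 31 of 34 at 2 were called, 15 of 35 at −1, 9 of 30 at 1, and 4 of 702 unchanged genes. The simulation gave all genes 1 shared dispersion, means averaged over both sides and changes of at most 3 log2 units. Most of its genes were unchanged, unlike the data, so these rates need not hold for the real comparison. For a gene absent from a side, a fold is a lower bound against 3 transcripts over that side, and with 1 to 3 transcripts a ratio with an exact 95% interval is given, which covers counting error only. Autofluorescence and transcripts per cell were compared as log10 medians by plate with an exact sign-flip permutation test.

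Named genes are the 15 largest differences each way at 100 CPM or more with 1 sign on all plates, the markers, and from each list the largest differences, the most abundant members and those at 0 on a side. Genes named for a small difference or for not passing were chosen after their values were seen. The members and lists were chosen with earlier results of these data known. No doublet caller was run. Some marker genes are not reported here. Alternatives were RLE scaling, DESeq2 1.42.0, no filter, no plate block, each plate left out, clusters 0 and 2 alone, thinned sums and recovered identifiers, and, chosen after seeing the data, equal cell numbers and omission of 2 cells.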

Additional observations from a re-analysis of the deposited data

How the results depend on the processing

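Against 716 called genes (357 higher in microglia-like cells, 359 lower), 1263 (545 and 718) were called without a filter on low counts. With cluster 0 alone as the oligodendrocyte side 1254 (619 and 635) were called, from plates 2 and 3 only. The choice of cluster cannot be told apart there from the loss of plate 1. With all sums thinned to 23840 transcripts, where fewer genes could be tested, 279 (152 and 127) were called. Leaving out 1 plate gave 404 to 1364 calls, 207 to 641 higher and 197 to 723 lower. The highest count was without plate 1, which has 4 oligodendrocyte-like cells, and the lowest without plate 2. The plate pairs the sides by design, and without the replicate block 764 genes were called (381 and 383), 715 of the 716 among them. RLE scaling called 743 (352 and 391), DESeq2 620, cluster 2 alone 604, recovered identifiers 719 and, chosen after seeing the data, equal cell numbers 665. No called gene changed sign under an alternative. Of 349 named genes tested, 28 lost their call by DESeq2, 48 without a filter, 32 with cluster 0 alone and 33 without plate 1, and 18 of 346 still tested did so without plate 3 and 44 of 273 without plate 2. The shift of each gene's log2 difference was taken over the called genes that the alternative also tested. Its median was −0.56 without a filter, −0.24 without plate 2, −0.13 by DESeq2 and −0.11 without plate 3. It was 0.20 with equal cell numbers and 0.31 in thinned sums.

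The log10 autofluorescence difference of 0.593 was 0.506 from means of log10 values, 0.661 against cluster 2 alone, and 0.558 to 0.622 with 1 plate left out. That of transcripts per cell, −0.475, was −0.365 against cluster 2, −0.592 against cluster 0, −0.559 without the 2 cells that went against their side, and −0.495 to −0.459 with 1 plate left out. That of genes per cell, −0.271, was −0.201, −0.341, −0.319, and −0.286 to −0.254 in the same order. The cause was not tested for any of these. Plate 1 held 1 cell of cluster 0 and 3 of cluster 2, 1 of which went against its side. Against cluster 0 the ratio of transcripts was 0.169, 0.326 and 0.305 on plates 1, 2 and 3, and against cluster 2 0.662, 0.388 and 0.313. In the main comparison it was 0.368, 0.328 and 0.312. That of genes was 0.373, 0.526 and 0.483 against cluster 0, beside 0.576, 0.538 and 0.497. The departures were thus largest on plate 1. Depth limits the microglia-like side most, where 3 transcripts are worth 39.0 CPM.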
